A study of Saccharomyces cerevisiae with 12 samples.

Results

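Box H/ACA small nucleolar RNAs (snoRNAs) and the proteins that carry them were followed in the yeast Saccharomyces cerevisiae, in wild type and in 3 mutant genotypes that lack essential subunits of the histone acetyltransferase NuA4. The members were chosen by name: the 29 features snR3, snR5, snR8 to snR11, snR30 to snR37, snR42 to snR44, snR46, snR49, snR80 to snR86, snR161, snR189 and snR191, and the genes of the core proteins CBF5, NHP2, GAR1 and NOP10. They were 33 of the 7126 features with a deposited value. All 33 passed the filter on low values, which kept features whose deposited RPKM averaged 1 or more. RPKM is the number of reads on a feature divided by its length and by the library's reads.

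An H/ACA snoRNA folds into hairpins joined by a hinge with box H and ends in a tail with the sequence ACA. Pockets in the hairpins pair with ribosomal RNA (rRNA) and place a uridine in the active site of Cbf5, the pseudouridine synthase, so each RNA is the guide and the proteins are the enzyme. Nhp2, Gar1 and Nop10 complete the particle, which gathers on the nascent snoRNA. snR30 guides no known modification and is needed for cleavage of the precursor of 18S rRNA. Most of these snoRNAs have their own RNA polymerase II promoter in yeast, and a few lie within introns of protein-coding genes.

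Each strain was a MATα haploid derived from W303, and all shared the marker alleles ade2-1 and ura3-1, trp1-1, can1-100, his3-11 and leu2 with the mutations 3 and 112. Wild type was compared with strains of genotype epl1Δ::kanMX sds3Δ::natMX, esa1Δ::HIS3 sds3Δ::natMX and esa1Δ::HIS3 epl1Δ::kanMX sds3Δ::natMX, grown at 24 °C in synthetic complete medium. Esa1 is the catalytic subunit of NuA4 and Epl1 ties it to the rest of the complex, while Sds3 belongs to the histone deacetylase Rpd3L. Each group had 3 biological replicates. Every mutant genotype was labelled sds3Δ and no strain with that deletion alone was analysed here, so its share of a difference cannot be told apart.

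Between 8089179 and 14527280 reads stood behind the values of a library, with the wild-type libraries among the deeper ones. ESA1 had 1 to 3 reads in the libraries labelled as deleted for it and 158 to 310 in the others. EPL1 had 4 to 13 against 62 to 142. SDS3 kept 36 to 77 reads where the label is sds3Δ, against 112 to 158 in wild type, which in RPKM scaled between libraries was 4.01 to 7.89 against 8.50 to 9.35. SDS3 was thus lower but not near 0, its values do not show the loss that the label names, and sds3Δ below stands for the label. MF(ALPHA)1, the gene of the α-factor pheromone, had 4664 to 5562 reads in the wild-type libraries, where the a-cell genes MFA1, MFA2 and AGA2 had at most 5 and STE2 and BAR1 20 to 42. Of the 5956 features tested, 60.1%, 59.7% and 59.4% differed from wild type in epl1Δ sds3Δ, then in esa1Δ sds3Δ and then in esa1Δ epl1Δ sds3Δ, at an adjusted p under 0.05 (limma, Benjamini-Hochberg). Values in sets of 3 below keep that order of genotypes.

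Levels in the text are RPKM divided by a scaling factor of each library (median of ratios over all features), and a log2 difference is a difference of log2(scaled RPKM + 1). "Rose" and "fell" mean an adjusted p under 0.05 over all features tested. All changes are relative to the median feature, since more of 1 RNA in a cell and less of all other RNA cannot be told apart in such libraries.

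The H/ACA snoRNAs rose as a family in the 3 mutant genotypes. Of 29, 27 rose in epl1Δ sds3Δ, where 30.1% of all features tested rose. In esa1Δ sds3Δ 26 of 29 rose beside 30.0% of all features, and in esa1Δ epl1Δ sds3Δ 26 of 29 beside 30.1%. None fell in any of the 3 comparisons by limma, with none at an unadjusted p under 0.05 and none by voom on read numbers. The median log2 difference was 1.11, 1.29 and 1.30, against -0.0063, -0.0064 and 0.0032 over all features. A rise of at least 2-fold was reached by 17, 19 and 18 of the 29, beside 9.23%, 9.03% and 9.27% of all features. The direction held for the family's median with each scaling tried, but with libraries scaled on the box C/D snoRNAs, the other large snoRNA class, 12, 14 and 14 of 29 rose and 5, 6 and 6 fell. That scaling moved the median of all features to -0.88, -0.96 and -0.93.

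**Figure D1:**
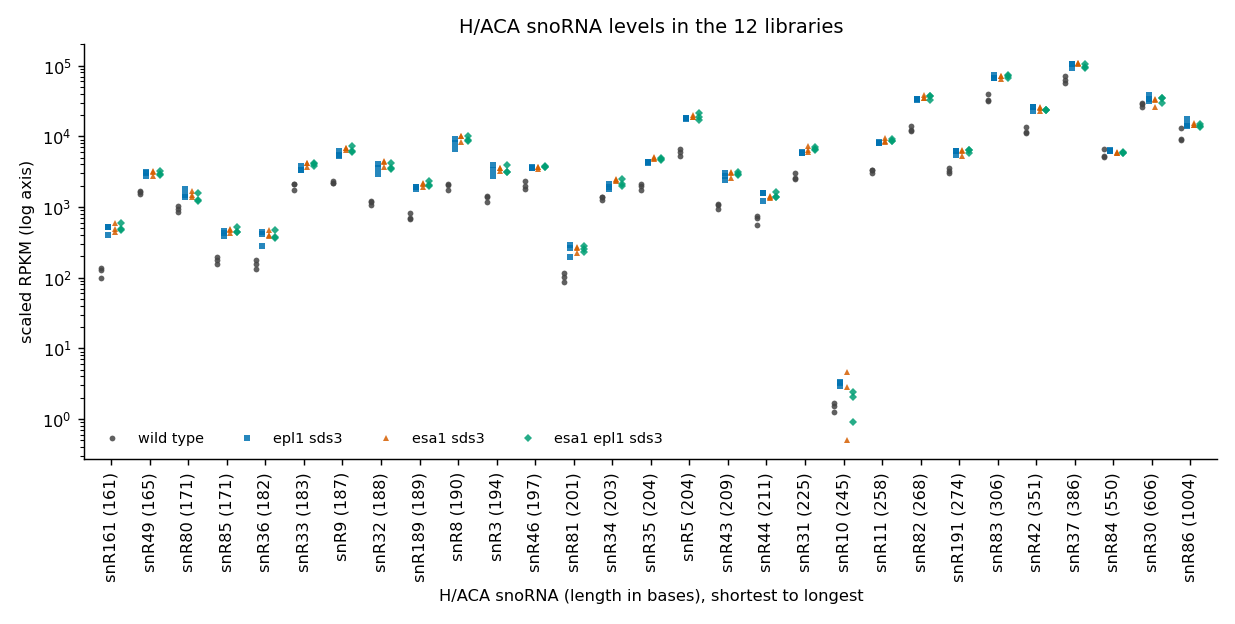
Scaled RPKM (log axis) of the 29 H/ACA snoRNAs in the 12 libraries, 3 for each genotype, ordered from the shortest RNA to the longest, with the length in bases in brackets. Each point is 1 library. The wild-type points of most RNAs lie below the mutant ones, relative to the median feature, snR30 and snR84 at the right differ little, and snR10 lies between 0.496 and 4.64.

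The RNAs that changed most and least are shown as their genes read in RefSeq (assembly R64), 5′ to 3′. Capitals mark matches to ANANNA, the consensus of box H, that lie whole within the central part of the RNA (from 1/3 to 2/3 of its length), and an ACA that ends 2 to 4 bases before the 3′ end. snR8 and snR161 had the largest mean rise over the 3 comparisons, and snR80 had the smallest among the members under 300 bases other than snR10. snR8 lies at chrXV:832332-832521 on the plus strand, snR161 at chrII:307185-307345 on the minus strand and snR80 at chrV:52150-52320 on the minus strand.
snR8: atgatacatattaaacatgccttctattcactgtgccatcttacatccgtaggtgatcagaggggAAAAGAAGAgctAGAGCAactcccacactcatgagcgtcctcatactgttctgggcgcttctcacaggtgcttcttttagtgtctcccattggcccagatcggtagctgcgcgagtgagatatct
snR161: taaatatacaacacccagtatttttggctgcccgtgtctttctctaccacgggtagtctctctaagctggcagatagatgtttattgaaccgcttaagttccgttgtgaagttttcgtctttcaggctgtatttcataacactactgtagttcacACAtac
snR80: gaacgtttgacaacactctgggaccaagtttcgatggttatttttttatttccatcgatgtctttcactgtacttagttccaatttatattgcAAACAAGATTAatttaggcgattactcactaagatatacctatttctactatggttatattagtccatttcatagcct

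snR8 has several overlapping matches to ANANNA and no ACA in the stated place at its annotated end, while snR161 has the ACA and no match in its central part. The annotated ends fitted the box rule unevenly: an ACA 2 to 4 bases from the end was found in 15 of 29 H/ACA snoRNAs and in 3 of 47 box C/D snoRNAs. ANANNA stood in the central part of 26 of 29 and of 21 of 47. The part searched was shorter in most box C/D genes, for which the counts were not adjusted. Of the 46 box C/D genes tested, 39 are under 150 bases, while every H/ACA gene has at least 161. The GC content of the H/ACA genes had a median of 37.7% and ranged from 32.1% to 47.9%.

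snR8, a guide for 25S rRNA, was at 1765, 2147 and 2062 scaled RPKM in the wild-type libraries. In the libraries labelled epl1Δ sds3Δ it was at 6507, 8112 and 9116, in esa1Δ sds3Δ at 8236, 10055 and 10097 and in esa1Δ epl1Δ sds3Δ at 8553, 8766 and 10196. All 9 mutant libraries lay above all 3 of wild type, and no mutant group stood clear of the others. The log2 differences were 1.98, 2.25 and 2.20, each with an SE of 0.14, and the adjusted p-values were 2.44e-07, 8.87e-08 and 1.06e-07.

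snR161, a guide for 18S rRNA, is among the scarcer members. Its wild-type libraries held 98.6, 136 and 129.8 scaled RPKM. The mutant libraries held 402, 527 and 527, then 444, 593 and 496 and 474, 491 and 601. The groups did not overlap, and the lowest mutant library, at 402, was far above the highest of wild type, at 136. The log2 differences were 1.99, 2.07 and 2.10 (adjusted p 6.44e-07, 4.80e-07 and 3.97e-07).

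The other guides for 18S rRNA alone also rose in each mutant genotype. snR83, next to the most abundant member per length, was at 32872, 39580 and 31629 scaled RPKM in wild type, at 66646, 72553 and 67039 in epl1Δ sds3Δ, at 72378, 65447 and 70682 in esa1Δ sds3Δ and at 71102, 66818 and 72634 in esa1Δ epl1Δ sds3Δ. All mutant libraries were clear of wild type, with log2 differences of 0.99, 1.01 and 1.02. snR31 had log2 differences of 1.10, 1.29 and 1.30 and snR35 of 1.15, 1.35 and 1.30. snR36 and snR85, which pass 500 scaled RPKM in at most 1 library, had differences of 1.25, 1.43 and 1.38 and of 1.26, 1.37 and 1.39. Over these 6 RNAs the median was 1.20, 1.36 and 1.34. In each comparison 6 of 6 rose, beside 30.1%, 30.0% and 30.1% of all features.

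Of the 17 guides for 25S rRNA alone, 15 rose in each comparison, beside 30.1%, 30.0% and 30.1% of all features. The medians of the 17 were 1.06, 1.02 and 1.02. snR5 was at 5279, 6539.6 and 6028 scaled RPKM in the wild-type libraries, at 17569, 18263 and 18128 in epl1Δ sds3Δ, at 18522, 20293 and 18698 in esa1Δ sds3Δ and at 18903, 16732 and 21140 in esa1Δ epl1Δ sds3Δ. Its log2 differences were 1.60, 1.69 and 1.67. snR32 was at 1073, 1224 and 1169.8 in wild type and at 2938, 3545 and 4039.5, at 3664, 4481 and 4263 and at 3478, 3532 and 4255 in the mutants, with differences of 1.59, 1.84 and 1.70. In both RNAs all mutant libraries lay above wild type by a wide gap. snR82 was at 11715, 14128 and 12075 in wild type and at 33342, 32871 and 33754, at 38048, 35062 and 34827 and at 36944, 32999 and 37623 in the mutants, again without overlap. A further 8 members rose by 0.82 to 1.58: snR3 (1.32, 1.38 and 1.33), snR9 (1.34, 1.58 and 1.53), snR11 (1.35, 1.43 and 1.44), snR33 (0.82, 1.02 and 1.02), snR42 (1.06, 1.02 and 0.97), snR43 (1.39, 1.49 and 1.52), snR82 (1.40, 1.51 and 1.51) and snR191 (0.86, 0.87 and 0.92). snR34 (0.55, 0.85 and 0.71), snR37 (0.67, 0.75 and 0.62), snR46 (0.82, 0.81 and 0.86) and snR86 (0.59, 0.54 and 0.46) rose too. The 25S guides that passed in no comparison were snR10 and snR84.

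snR37 was the most abundant member per length in all 4 groups. It stood at 57185, 71950 and 63154 scaled RPKM in wild type, at 104100, 93903 and 106040 in epl1Δ sds3Δ, at 105320, 107780 and 109350 in esa1Δ sds3Δ and at 93494, 94778 and 106890 in esa1Δ epl1Δ sds3Δ, without overlap. Its adjusted p-values were 9.71e-05, 3.64e-05 and 0.000157. With quantile normalization its difference was 0.0 in each comparison (adjusted p 1.0). That setting gives the same value to the same rank in every library, so it cannot show a change where the rank stays the same.

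The 4 guides with targets in both 18S and 25S rRNA rose in each comparison, beside 30.1%, 30.0% and 30.1% of all features. Their medians were 0.99, 0.98 and 1.02. snR189 changed most of them (1.36, 1.50 and 1.54), snR44 by 1.11, 1.05 and 1.14 and snR49 by 0.87, 0.91 and 0.90. snR80 was at 858, 941 and 1039.9 scaled RPKM in wild type, at 1389, 1779.7 and 1488 in epl1Δ sds3Δ, at 1697, 1379.5 and 1459 in esa1Δ sds3Δ and at 1272, 1226 and 1580.1 in esa1Δ epl1Δ sds3Δ. Its groups did not overlap, and its differences of 0.71, 0.67 and 0.52 passed (adjusted p 0.000539, 0.00079 and 0.00464). After quantile normalization these calls of snR80 were lost (0.21, 0.16 and 0.13, adjusted p 0.221, 0.356 and 0.451), and with RPKM as deposited that in esa1Δ epl1Δ sds3Δ (0.31, adjusted p 0.0609). snR81, which guides modification of 25S rRNA and of the spliceosomal U2 RNA, rose by 1.27, 1.29 and 1.32.

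snR30, the cleavage RNA, was the third most abundant member per length in wild type with 25584, 28275 and 29974 scaled RPKM. It was at 31709, 33605 and 38863 in epl1Δ sds3Δ, at 32879, 25682 and 33600 in esa1Δ sds3Δ and at 34313, 29815 and 34996 in esa1Δ epl1Δ sds3Δ. Only the libraries of esa1Δ sds3Δ and of esa1Δ epl1Δ sds3Δ overlapped wild type, by 1 library each. The log2 differences were 0.31, 0.13 and 0.24 with an SE of 0.12, and the adjusted p was 0.0445, 0.387 and 0.110. The call in epl1Δ sds3Δ was lost with no filter on low values (adjusted p 0.0818), in a fit of the 2 groups alone (adjusted p 0.0757), without wild-type replicate 1 (0.25, adjusted p 0.150), without wild-type replicate 2 (adjusted p 0.0517), without epl1Δ sds3Δ replicate 2 (adjusted p 0.0714) and without its replicate 3 (adjusted p 0.167), and also with RPKM as deposited (0.05, adjusted p 0.691).

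snR84 was at 5166, 6656 and 5248 scaled RPKM in wild type, at 6430.4, 6194 and 6283 in epl1Δ sds3Δ, at 5743, 5795 and 5908 in esa1Δ sds3Δ and at 5738, 5862 and 5990 in esa1Δ epl1Δ sds3Δ. Wild-type replicate 2 lay above all mutant libraries and the other 2 below them. The differences of 0.16, 0.04 and 0.05 did not pass the test (adjusted p 0.189, 0.737 and 0.665). Without wild-type replicate 2 they were 0.28, 0.16 and 0.17 and passed (adjusted p 0.00145, 0.0288 and 0.0210). Other settings gave snR84 the opposite sign: as deposited it fell in esa1Δ sds3Δ (-0.21, adjusted p 0.00999), after quantile normalization in esa1Δ sds3Δ (-0.36, adjusted p 7.59e-05) and esa1Δ epl1Δ sds3Δ (-0.27, adjusted p 0.000656), and without wild-type replicate 1 or 3 its differences there were between -0.023 and -0.0002 and did not pass. snR86, the longest member, showed the same high replicate, with 8942, 13001 and 9108 in wild type and 14599, 13828 and 17803, then 14640, 14419 and 15403 and then 13754, 13403 and 14997 in the mutants. It rose by 0.59, 0.54 and 0.46 (adjusted p 0.00301, 0.00521 and 0.0126), and the call in esa1Δ epl1Δ sds3Δ was lost without wild-type replicate 1 (adjusted p 0.0574) or 3 (adjusted p 0.0537).

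snR10, a 25S guide that also acts in early cleavage of the rRNA precursor, had almost no reads assigned to it in these libraries. The wild-type libraries had 5, 5 and 7 reads on it, and there were 8, 6 and 6 in epl1Δ sds3Δ, 10, 6 and 1 in esa1Δ sds3Δ and 2, 5 and 7 in esa1Δ epl1Δ sds3Δ. The other 28 snoRNAs had at least 256 reads in every library. In scaled RPKM its libraries overlapped wild type in esa1Δ sds3Δ and esa1Δ epl1Δ sds3Δ and not in epl1Δ sds3Δ, and the adjusted p-values were 0.101, 0.422 and 0.789. It passed in esa1Δ sds3Δ without replicate 3 (adjusted p 0.00980) and in epl1Δ sds3Δ in a fit of the 2 groups alone (adjusted p 0.00527). Its gene at chrVII:345986-346230 overlaps the reading frame YGL088W on the same strand, which itself had 0 to 2 reads in a library, and how reads on 2 features were assigned is not given in the sources used here. The gene is shown because its annotation, unlike its reads, is that of an ordinary member, with both boxes in capitals.
snR10: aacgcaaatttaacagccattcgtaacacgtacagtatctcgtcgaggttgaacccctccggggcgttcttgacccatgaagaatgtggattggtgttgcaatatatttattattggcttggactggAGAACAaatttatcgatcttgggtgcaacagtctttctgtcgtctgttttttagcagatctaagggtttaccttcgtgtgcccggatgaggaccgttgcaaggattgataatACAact

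Levels spread widely within the family. Without snR10, the highest mean was 629.7 times the lowest in wild type and 408.3, 430.3 and 385.4 times the lowest in the mutant genotypes. In the wild-type order, 13 of 28 neighbouring pairs had libraries that did not overlap, and 15 pairs overlapped. In the middle of the order, the ranks from snR9 through snR46, snR8 and snR33 to snR35 overlapped from each to the next, while snR11, snR31 and snR9 were apart. The top ranks of wild type were snR37, snR83 and snR30, each apart from the next. In esa1Δ sds3Δ snR82 took the third rank, with libraries apart from those of snR30, and in the other mutant genotypes snR82 and snR30 overlapped.

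**Figure D2:**
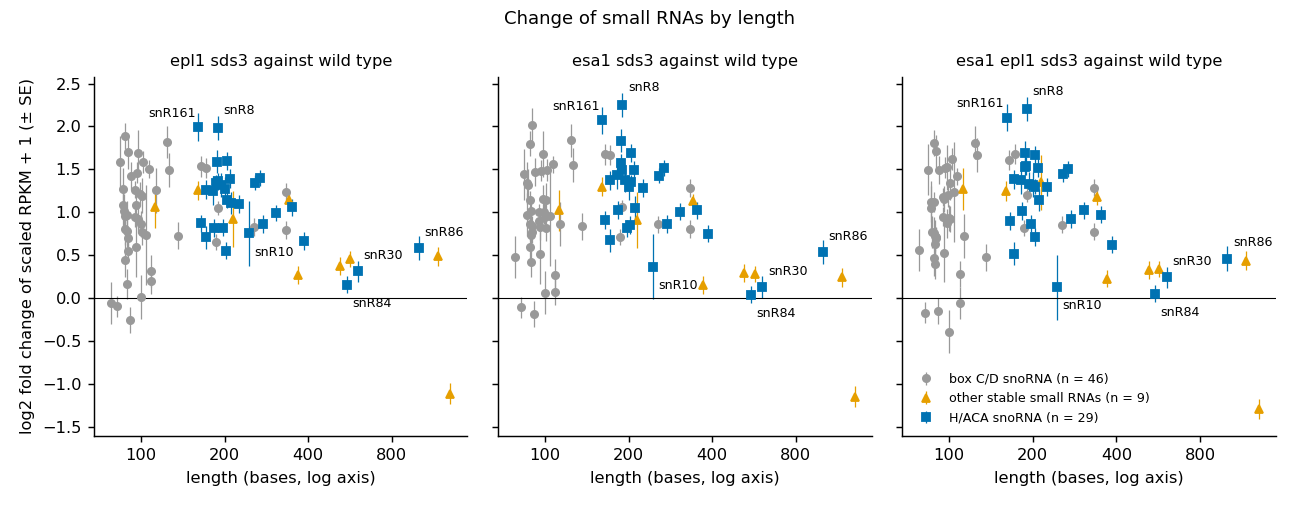
Log2 difference from wild type (± SE, scaled RPKM + 1) against RNA length (log axis) for H/ACA snoRNAs (29), box C/D snoRNAs (46) and other stable small RNAs (9) in the 3 mutant genotypes. All H/ACA members under 300 bases but snR10 lie above 0.5 and the 3 members of 500 bases or more lie between 0.04 and 0.59, relative to the median feature. With scaling on box C/D snoRNAs, whose median is then the zero, the long members are below it.

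The rise differed with the length of the RNA. In each comparison 12 of the 12 members of 150 to under 200 bases rose, beside 30.1%, 30.0% and 30.1% of all features. Their median log2 differences were 1.29, 1.41 and 1.38. The 11 of 200 to under 300 bases had 1.15, 1.29 and 1.30, and the 3 of 300 to under 500 bases, snR83, snR42 and snR37, had 0.99, 1.01 and 0.97. The 3 of 500 bases or more, snR84, snR30 and snR86, had 0.31, 0.13 and 0.24. Across the 29 members, Pearson's r between the log2 difference and log2 length was -0.60, -0.63 and -0.60, and Spearman's rho was -0.43, -0.49 and -0.48. These are correlations across genes of the same libraries, given as a description.

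The same relation was looked at in 2 other classes of RNA. Over 46 box C/D snoRNAs of 78 to 333 bases, r was 0.13, 0.11 and 0.15. Over 9 other stable RNAs it was -0.77, -0.82 and -0.81, and without the telomerase RNA TLC1, over 8, it was -0.72, -0.77 and -0.77. The 2 of these stable RNAs with 300 to under 500 bases differed. NME1, the RNA of RNase MRP, with 340 bases, rose by 1.14, 1.13 and 1.17. RPR1, the RNA of RNase P, with 369 bases, had differences of 0.27, 0.15 and 0.23, of which the first passed the test. That call of RPR1 was lost with RPKM as deposited (0.0078, adjusted p 0.945), with no filter (adjusted p 0.0662), in a fit of 2 groups (adjusted p 0.129), without wild-type replicate 1 (adjusted p 0.150) and without epl1Δ sds3Δ replicate 3 (adjusted p 0.174). Protein-coding genes of these length ranges had medians between -0.09 and 0.28. The part of RNA length, or of how short RNAs pass through library making, in the result was not tested.

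**Figure D3:**
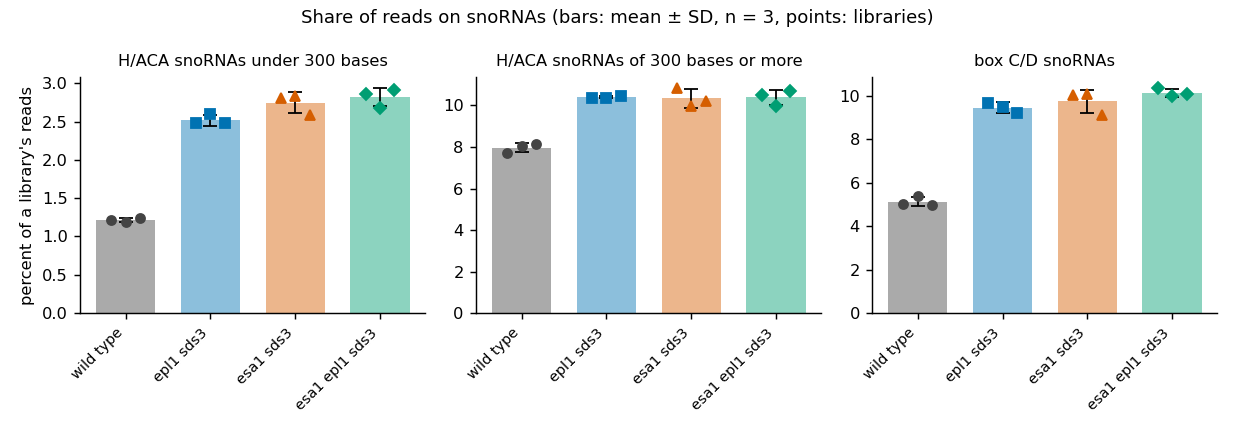
Percent of a library's reads on H/ACA snoRNAs under 300 bases, on those of 300 bases or more and on box C/D snoRNAs. Bars are means with SD (n = 3) and points are libraries. In the 3 panels every mutant library lies above every wild-type library.

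The family also took a larger part of the reads. In wild type, H/ACA snoRNAs held 9.18% ± 0.222 (SD, n = 3) of the reads, which became 12.9% ± 0.0612, 13.1% ± 0.476 and 13.2% ± 0.489 in the mutant genotypes. The lowest mutant library, at 12.7%, was above the highest of wild type, at 9.38%. Members under 300 bases went from 1.22% to 2.52%, 2.74% and 2.82% and those of 300 bases or more from 7.97% to 10.4%, 10.3% and 10.4%, so the short members gained more in proportion. Box C/D snoRNAs rose from 5.14% to 9.47%, 9.75% and 10.1%, and the H/ACA part of both classes was 64.1% in wild type and 57.7%, 57.3% and 56.5% in the mutants. A share of reads depends on all other RNAs in a library and counts a long RNA more often than a short one.

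Within the family the composition shifted. The 4 members with most reads, snR37, snR30, snR83 and snR86, held 77.6% ± 0.507 of the family's reads in the wild-type libraries, against 71.4% ± 1.19, 70.4% ± 1.44 and 70.1% ± 0.329 in the mutants. snR30 went from 21.1% ± 2.05 to 15.5% ± 1.08, 13.6% ± 1.65 and 15.0% ± 0.740. snR84 went from 3.87% ± 0.194 to 2.56% ± 0.113, 2.34% ± 0.0534 and 2.42% ± 0.111. snR82 moved the other way, from 4.20% ± 0.0786 to 6.60% ± 0.185, 7.05% ± 0.334 and 7.20% ± 0.265. These shares do not depend on the scaling between libraries.

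**Figure D4:**
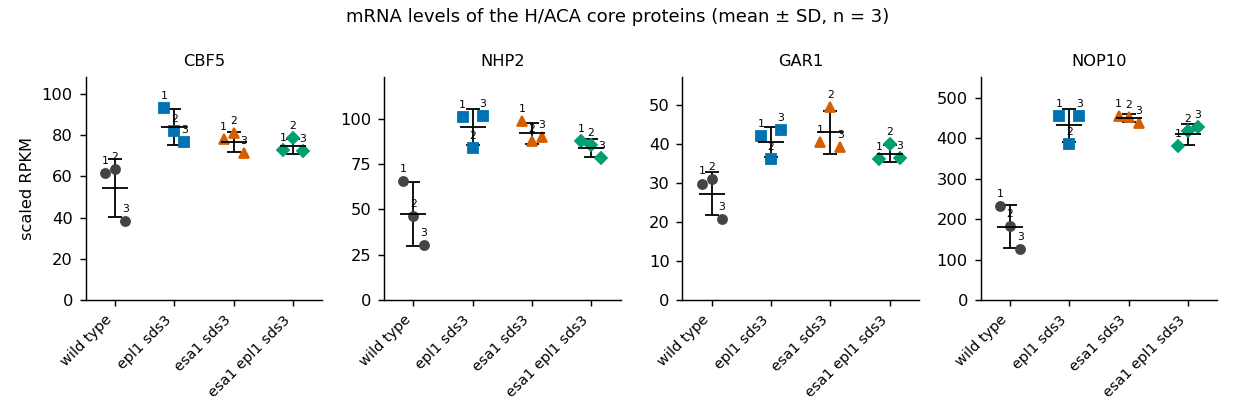
Scaled RPKM of the mRNAs of CBF5, NHP2, GAR1 and NOP10 in the 12 libraries, numbered by replicate, with the mean ± SD (n = 3) of each genotype. All 9 mutant libraries lie above the wild-type libraries for each gene, relative to the median feature, and wild-type replicate 3 is the lowest library of each gene. With scaling on box C/D snoRNAs the differences of CBF5 and GAR1 turn negative, as do those of NHP2 in esa1Δ sds3Δ and esa1Δ epl1Δ sds3Δ, and none of NOP10 is called.

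The mRNAs of the 4 core proteins rose in the 3 mutant genotypes, 4 of 4 each time and 0 fell, also by voom and at an unadjusted p under 0.05. Of all features 30.1%, 30.0% and 30.1% rose and 30.0%, 29.7% and 29.3% fell. The rise was largest for NOP10, whose protein bridges the synthase and the guide, and for NHP2, whose protein binds the upper hairpin. NOP10 was at 234, 184 and 126 scaled RPKM in wild type, at 456, 385 and 456 in epl1Δ sds3Δ, at 456, 454 and 438 in esa1Δ sds3Δ and at 382, 418 and 429 in esa1Δ epl1Δ sds3Δ. The groups did not overlap, and the differences were 1.29, 1.35 and 1.21 (SE 0.17, adjusted p 3.60e-05, 2.54e-05 and 5.54e-05).

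NHP2 was at 65.8, 46.3 and 30.5 scaled RPKM in wild type and at 101, 83.8 and 101, at 98.6, 87.7 and 89.6 and at 87.4, 85.7 and 78.4 in the mutants. Its wild-type replicates differed by more than 2-fold, and all mutant libraries were above them. The log2 differences were 1.05, 1.00 and 0.87 (SE 0.20, adjusted p 0.000616, 0.000872 and 0.00229).

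CBF5, the pseudouridine synthase, was at 61.7, 63.4 and 38.2 scaled RPKM in wild type, at 93.4, 82.2 and 76.5 in epl1Δ sds3Δ, at 78.0, 80.9 and 71.4 in esa1Δ sds3Δ and at 72.6, 78.6 and 72.5 in esa1Δ epl1Δ sds3Δ. Wild-type replicate 3 was far below the other 2, and no mutant library reached down to the wild-type range. The differences were 0.65, 0.52 and 0.48 (SE 0.16, adjusted p 0.00374, 0.0131 and 0.0199). Without wild-type replicate 3 they were 0.41, 0.29 and 0.25, and the call in esa1Δ epl1Δ sds3Δ was lost (adjusted p 0.0540). It was also lost without esa1Δ epl1Δ sds3Δ replicate 2 (adjusted p 0.0621) and in a fit of the 2 groups alone (adjusted p 0.0530).

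GAR1, whose protein helps the modified rRNA leave the particle, was at 29.9, 30.9 and 20.9 scaled RPKM in wild type and at 42.0, 36.3 and 43.5, at 40.4, 49.4 and 39.2 and at 36.2, 40.0 and 36.5 in the mutants. Wild-type replicate 3 was again the lowest, and no mutant library fell to the wild-type range. The differences were 0.57, 0.65 and 0.47 (SE 0.14, adjusted p 0.00381, 0.00166 and 0.0127) and 0.40, 0.48 and 0.29 without wild-type replicate 3. With RPKM as deposited, the calls of GAR1 in epl1Δ sds3Δ (0.32, adjusted p 0.0540) and esa1Δ epl1Δ sds3Δ (0.27, adjusted p 0.107) and those of CBF5 in esa1Δ sds3Δ (0.27, adjusted p 0.149) and esa1Δ epl1Δ sds3Δ (0.28, adjusted p 0.140) were lost.

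The 4 mRNAs varied together over the 12 libraries, with Pearson's r between 0.896 for CBF5 with NOP10 and 0.971 for NHP2 with NOP10, as a description of libraries that fall into a wild-type and a mutant cluster. The features nearest to the mean profile of the 4 were sought among those tested, without the 4 themselves and all features named snR. They were RPB8 (r = 0.991 over 12 libraries), ARX1 (0.991), NIP7 (0.989), SNU13 (0.987) and IMD4 (0.986).

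The 3 mutant genotypes were also compared with each other. Of the 29 snoRNAs, 0 passed the test in esa1Δ sds3Δ against epl1Δ sds3Δ, in esa1Δ epl1Δ sds3Δ against epl1Δ sds3Δ or in esa1Δ epl1Δ sds3Δ against esa1Δ sds3Δ, by limma or by voom. Of all features, 0.185%, 0.134% and 0.0504% did. At an unadjusted p under 0.05 the first comparison had 3 snoRNAs, all higher in esa1Δ sds3Δ, and the others 0. The share of all features at that unadjusted cutoff was not computed, so no excess of snoRNAs is read from these 3. The median differences of the snoRNAs were 0.08, 0.07 and -0.01, with SEs between 0.08 and 0.38. Of the 4 protein mRNAs 0 passed in any of the 3 and 0 had an unadjusted p under 0.05, with differences between -0.19 and 0.08.

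The factors that build H/ACA particles moved unequally. Of 6, 3 rose in epl1Δ sds3Δ, 1 in esa1Δ sds3Δ and 4 in esa1Δ epl1Δ sds3Δ, and 0 fell in any, where 30.1%, 30.0% and 30.1% of all features rose, and the counts lie on both sides of that share. NAF1, whose protein holds the place of Gar1 in the new particle, was at 3.19, 2.32 and 1.65 scaled RPKM in wild type and between 6.38 and 9.62 in the mutants, without overlap, and rose by 1.45, 1.43 and 1.35. SHQ1, whose protein is the chaperone of Cbf5, had differences of 0.65, 0.46 and 0.80 (adjusted p 0.00960, 0.0507 and 0.00268). Blocking on the replicate number in esa1Δ sds3Δ gave SHQ1 an adjusted p of 0.0275. SHQ1 also passed there with scaling on protein-coding features (adjusted p 0.0447), quantile normalization (adjusted p 0.0484) and voom (adjusted p 0.032). It passed too without wild-type replicate 1 (adjusted p 0.0101) or 2 (adjusted p 0.0463). PIH1 and RVB2, of the assembly chaperones R2TP, had differences of 0.35, 0.21 and 0.33 and of 0.11, 0.16 and 0.20, while RVB1 (0.04, 0.00 and 0.19) and TAH1 (-0.09, -0.13 and -0.03) passed in no comparison.

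Of 18 genes for the ending, trimming and capping of snoRNA transcripts, 14, 12 and 13 rose and 1 fell in each comparison, beside 30.1%, 30.0% and 30.1% of all features that rose and 30.0%, 29.7% and 29.3% that fell. RNT1, the RNase III that cuts snoRNA precursors, rose by 0.96, 1.04 and 1.14, and RAT1, the nuclear 5′ exonuclease, by 1.03, 0.97 and 1.13. TRF5, a poly(A) polymerase of the TRAMP complex that marks nuclear RNA for decay or trimming, rose by 1.50, 1.20 and 1.43. The gene that fell was XRN1, the cytoplasmic 5′ exonuclease, at 44.2, 46.3 and 47.2 scaled RPKM in wild type and 27.8 to 33.5 in the mutants (-0.53, -0.60 and -0.61). RRP6, the nuclear exosome nuclease that trims snoRNA 3′ ends, did not pass (0.18, 0.11 and 0.15).

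Pseudouridine synthases that work without a guide gave a mixed picture, with 3, 3 and 4 of 9 higher and 2 lower in each comparison. PUS1, which modifies tRNA and U2, rose by 0.95, 0.70 and 0.75. PUS9, a mitochondrial tRNA enzyme, fell, with differences of -0.69, -0.76 and -0.64. These shares are near those of all features, of which 30.1%, 30.0% and 30.1% rose and 30.0%, 29.7% and 29.3% fell.

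Box C/D snoRNAs, which guide 2′-O-methylation with other proteins, are the other large class. Of 47, 46 were tested, and 36, 37 and 36 rose, where 30.1%, 30.0% and 30.1% of all features did. None fell, and the medians were 0.96, 0.96 and 0.94. Their core proteins rose in 4, 3 and 4 of 4 cases, with NOP1, the methyltransferase, at 1.16, 1.03 and 0.96 and SNU13 at 1.17, 1.17 and 0.97. No test of the difference between the 2 snoRNA classes was made.

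**Figure D5:**
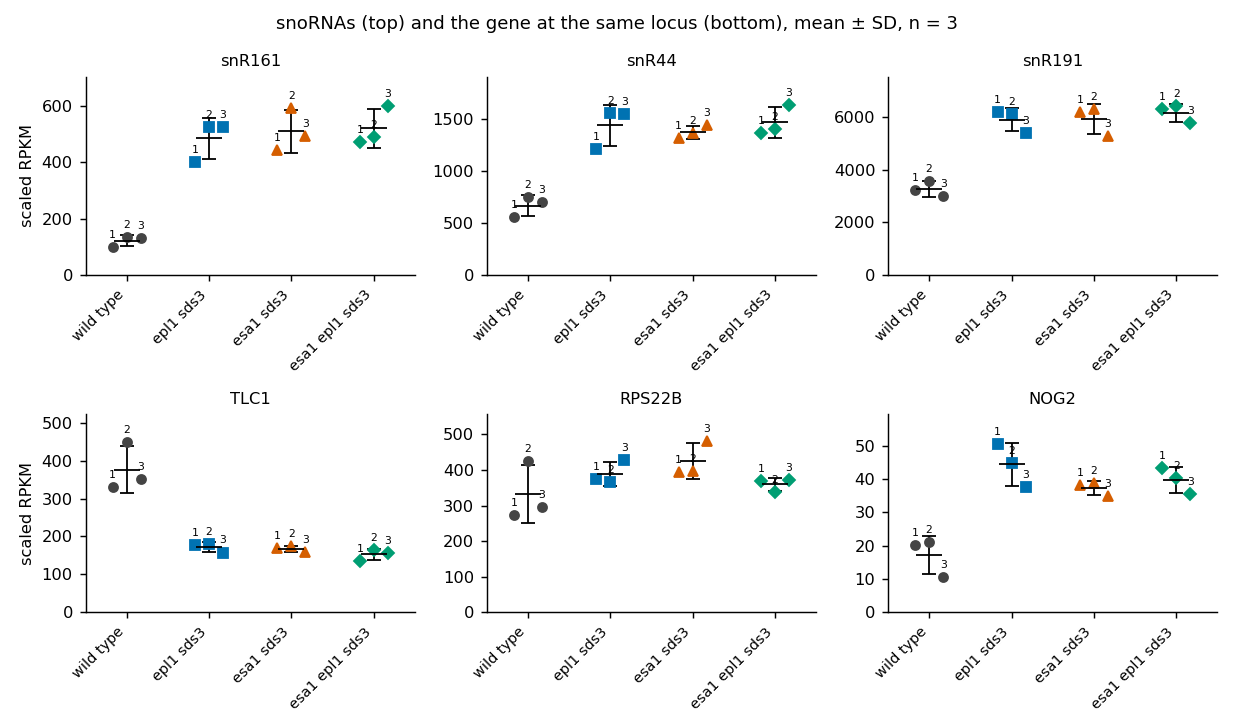
Scaled RPKM of 3 H/ACA snoRNAs (top) and of the gene at the same locus (bottom) in the 12 libraries, numbered by replicate, with mean ± SD (n = 3). snR161 is higher and its divergent neighbour TLC1 lower in the mutants, snR44 is higher while its host RPS22B overlaps wild type, and snR191 and its host NOG2 are both higher, relative to the median feature. With scaling on box C/D snoRNAs, snR191 and RPS22B turn negative.

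snR161 and TLC1, the RNA template of telomerase, lie back to back on chromosome II. While snR161 rose, TLC1 fell from 330.4, 449 and 352 scaled RPKM in wild type to 179, 181 and 158 in epl1Δ sds3Δ, 169, 175 and 159 in esa1Δ sds3Δ and 136, 164 and 158 in esa1Δ epl1Δ sds3Δ. No mutant library reached the wild-type range, and the log2 differences were -1.11, -1.15 and -1.29 (adjusted p 7.57e-06, 6.09e-06 and 2.12e-06). snR31 and snR5, both members, also lie back to back, with 220 bases between them on chromosome XV, and there both RNAs rose. That interval, chrXV:842183-842402, is shown on the plus strand of R64 because it lies upstream of both RNAs. Capitals mark the motif matches, AAAATTT (RRPE) on either strand and AGCCCTA (a form of the Tbf1 site).
snR31-snR5 interval: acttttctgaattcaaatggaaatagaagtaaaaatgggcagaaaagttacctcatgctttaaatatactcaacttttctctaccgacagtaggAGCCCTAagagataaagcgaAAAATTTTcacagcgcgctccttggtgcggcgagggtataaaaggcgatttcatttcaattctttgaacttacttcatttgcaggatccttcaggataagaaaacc

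Motifs were sought on both strands from 250 bases before to 50 bases after each annotated start. AACCCTA or AGCCCTA, bound by the factor Tbf1 in yeast, was present at 10 of 29 H/ACA genes (34.5%), at 10.6% of box C/D genes and at 4.06% of 6430 nuclear genes. TTACCCG, the Reb1 site, was present at 7 of 29 (24.1%) against 6.91% of all nuclear genes and 2.13% of box C/D genes. CGATGAG (PAC) was present at 2 of 29 (6.90%) against 6.70% and 6.38%. AAAATTT was present at 14 of 29 (48.3%) against 22.9% and 40.4%, and was thus common in both snoRNA classes. Genes within introns were kept in these counts. So were box C/D genes in rows, such as snR72 to snR78 at chrXIII:297278-298651, where the window can cover a neighbouring snoRNA. The box C/D shares are thus not shares of promoters alone. snR8, the member with the highest mean rise, had none of the 4 motifs in this window, and snR10 had the Tbf1 and Reb1 letters. snR5 and snR31 share 1 Tbf1 match. A match is a stretch of letters and no measure of binding.

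Outside the family, 14 genes start back to back with an H/ACA snoRNA. Of these, 8, 5 and 9 fell and 1, 2 and 1 rose, with 1 not tested and medians of -0.40, -0.29 and -0.36. Of 24 neighbours on the same strand, 10, 9 and 7 rose and 5, 5 and 4 fell, and of 18 convergent ones 8, 7 and 7 rose and 2, 3 and 3 fell. Of all features, 30.1%, 30.0% and 30.1% rose and 30.0%, 29.7% and 29.3% fell. No test of the counts of neighbours against these shares was made. The divergent genes that fell included LYS9 beside snR49 (-0.96, -1.03 and -1.38) and MF(ALPHA)2 beside snR10 (-1.93, -2.26 and -2.69), both named after their values were seen. Other α-cell genes, not among these neighbours, were lower in the mutants too. MF(ALPHA)1 was at 581 to 700 scaled RPKM in wild type and 195 to 270 in the mutants. SAG1 was at 84.2 to 116 and 30.6 to 38.0, and STE3 at 87.1 to 101 and 58.4 to 70.7. On the same strand downstream of snR8, YTM1, a 60S assembly factor, rose by 1.80, 1.72 and 1.76 and was also named after its values were seen.

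snR44 and snR191 lie within introns and are released from their hosts' transcripts. They are shown because host and guide can be compared: snR44 at chrXII:856710-856920 on the plus strand lies in RPS22B, a ribosomal protein gene, and snR191 at chrXIV:721938-722211 on the minus strand lies in NOG2, a GTPase gene of 60S assembly. snR44 holds neither box in the stated places, and snR191 holds both.
snR44: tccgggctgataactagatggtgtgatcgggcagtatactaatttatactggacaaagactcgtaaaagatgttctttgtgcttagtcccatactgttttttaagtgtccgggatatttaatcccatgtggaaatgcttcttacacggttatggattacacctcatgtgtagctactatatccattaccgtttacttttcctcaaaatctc
snR191: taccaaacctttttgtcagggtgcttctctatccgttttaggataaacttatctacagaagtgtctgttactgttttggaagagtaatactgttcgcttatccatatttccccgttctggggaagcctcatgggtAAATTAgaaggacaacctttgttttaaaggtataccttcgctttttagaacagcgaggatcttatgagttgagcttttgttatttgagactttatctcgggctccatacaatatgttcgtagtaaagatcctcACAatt

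snR44 was at 559, 748 and 697 scaled RPKM in wild type, at 1210.4, 1558 and 1555 in epl1Δ sds3Δ, at 1319, 1368 and 1444 in esa1Δ sds3Δ and at 1368, 1404 and 1638 in esa1Δ epl1Δ sds3Δ, without overlap. Its host RPS22B was at 274, 425 and 295 in wild type and between 337 and 483 in the mutants, which overlapped wild type through its replicate 2. The differences of RPS22B were 0.25, 0.38 and 0.14 (adjusted p 0.157, 0.0445 and 0.431) beside 1.11, 1.05 and 1.14 for snR44. The call of RPS22B in esa1Δ sds3Δ was lost with RPKM as deposited, quantile normalization, no filter or a fit of 2 groups (adjusted p between 0.0513 and 0.329), without wild-type replicate 1 (adjusted p 0.171) or 3 (adjusted p 0.129) and without any 1 of its own replicates (adjusted p between 0.0543 and 0.167). Without wild-type replicate 2, RPS22B rose in epl1Δ sds3Δ (0.45, adjusted p 0.00474) and in esa1Δ epl1Δ sds3Δ (0.33, adjusted p 0.0219).

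snR191 was at 3212, 3576 and 2986 scaled RPKM in wild type and at 6192, 6121 and 5410.5, at 6208, 6329 and 5288 and at 6295, 6407 and 5768 in the mutants. NOG2 was at 20.1, 21.0 and 10.6 in wild type and between 35.0 and 50.6 in the mutants. Both rose without overlap, snR191 by 0.86, 0.87 and 0.92 and NOG2 by 1.36, 1.13 and 1.21. The difference between host and guide was not tested in either pair.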

How the data were processed

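RNA from wild type and 3 mutant genotypes was sequenced in 12 libraries, 3 biological replicates each per the labels. After hot phenol extraction and DNase treatment the RNA was depleted of rRNA with Ribo-Zero and made into stranded TruSeq total RNA libraries, per the labels' protocols. The deposited values are RPKM per feature, made by the authors, and the tools in the submitters' processing notes were STAR, Bowtie 0.12.2 and cutadapt. How reads were counted, with or without strand, and what was done with overlapping features or multiply mapping reads is not given in the sources used here, so values of near-identical or overlapping features are uncertain.

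Deposited RPKM was multiplied by the RefSeq R64 length or, for a few features, by a length taken from the values. This gave whole reads within 0.01 read for 99.9% of the values under 5000 reads in a library. Of 7126 features, 6048 matched by locus tag and 114 by name, and 964 were not matched. The lengths taken from the values were sought so that reads came out whole. They were those of the 2 U3 genes and a few others, such as ABP140 and HOP2, none an H/ACA member. Between 8089179 and 14527280 reads stood behind a library, and few reads limit the precision of snR10 alone among the H/ACA snoRNAs.

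RPKM was divided by median-of-ratios factors, 1.02 to 1.22 in wild type and 0.914 to 1.01 in the mutants. Features with a mean deposited RPKM of at least 1 were tested (5956) with limma 3.58.1 in R 4.3.3, with all 12 libraries in 1 fit of log2(scaled RPKM + 1), a mean-variance trend, two-sided p-values and Benjamini-Hochberg adjustment within a comparison. This scale understates changes of low features. The test was checked on simulated data. Every member was named. Values per library were given for the 4 proteins, snR30, snR10, snR44 and snR191 with their hosts, the 4 snoRNAs with the largest and the 4 with the smallest mean difference and the 4 most abundant in wild type. From the related lists, some of the genes with the smallest adjusted p and some going against the rest were named, but no box C/D snoRNA. The 5 profiles nearest to the proteins' mean by Pearson's r were sought outside the features named snR. The members and lists were chosen with earlier results of these data known. Alternatives were other scalings, pseudocounts, filters, a fit of 2 groups, a replicate block, each library left out, and voom on recovered reads, which was chosen after seeing the data. The wild-type libraries are shared by the 3 comparisons with mutants.

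Same-numbered replicates deviated together in all 3 pairs (r over 0.1) in esa1Δ sds3Δ against wild type alone (0.124, 0.125 and 0.182). In esa1Δ epl1Δ sds3Δ against wild type r was 0.156, 0.0504 and 0.187. Correlations this small do not establish a pairing, and the labels name no shared day. The p-values here thus come from fits without pairing, except where the replicate block is named.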

Additional observations from a re-analysis of the deposited data

How the results depend on the processing

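Counts of H/ACA snoRNAs that rose were 25 to 27 with each library left out in turn, and 0 fell then. With the replicate block they stayed at 27, 26 and 26, and of the calls named the block changed those of SHQ1 in esa1Δ sds3Δ (adjusted p 0.0275) and RPR1 in esa1Δ epl1Δ sds3Δ (adjusted p 0.0458). The main fit held no pairing in either comparison. The scaling mattered most, and why was not tested. Scaled on box C/D snoRNAs, 17 snoRNAs were called in epl1Δ sds3Δ, and 12, 14 and 14 rose and 5, 6 and 6 fell, while of all features 359, 293 and 315 rose and 4506, 4663 and 4627 fell. With RPKM as deposited 1 snoRNA fell in esa1Δ sds3Δ, and of all features 1171, 1162 and 1251 rose and 2560, 2562 and 2354 fell, with their median at -0.24, -0.24 and -0.18. With quantile normalization 2 snoRNAs fell in esa1Δ sds3Δ and 3 in esa1Δ epl1Δ sds3Δ. The family's median was 0.85, 1.03 and 1.09 as deposited, 0.16, 0.25 and 0.27 on box C/D scaling and 0.69, 0.79 and 0.86 after quantile normalization.

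Differences of opposite sign with box C/D scaling, in the order epl1Δ sds3Δ, then esa1Δ sds3Δ, then esa1Δ epl1Δ sds3Δ, were snR30 -0.64, -0.91, -0.78, snR33 -0.13, -0.013, -0.0052, snR34 -0.39, -0.19, -0.31, snR37 -0.28, -0.29, -0.40, snR46 -0.12, -0.22, -0.16, snR49 -0.072, -0.13, -0.12, snR80 -0.24, -0.36, -0.50, snR84 -0.79, -0.996, -0.97, snR86 -0.36, -0.50, -0.56, snR191 -0.086, -0.17, -0.10, CBF5 -0.29, -0.50, -0.53, GAR1 -0.35, -0.36, -0.53, SHQ1 -0.15, -0.42, -0.071, RPR1 -0.68, -0.89, -0.79, SCR1 -0.57, -0.74, -0.70 and RPS22B -0.69, -0.66, -0.88. In esa1Δ sds3Δ and esa1Δ epl1Δ sds3Δ alone they were snR10 -0.30, -0.53, snR42 -0.014, -0.053, snR83 -0.029, -0.0007, NHP2 -0.019, -0.14 and PUS1 -0.27, -0.21. RAT1 was at -0.0036 in esa1Δ sds3Δ, and NOP1 at -0.047 and SNU13 at -0.045 in esa1Δ epl1Δ sds3Δ. Calls lost with it at the same sign were those of NHP2 in epl1Δ sds3Δ (0.12), of NOP10 (0.35, 0.32 and 0.19), snR44 (0.16, 0.016 and 0.12), RNT1 (0.14, 0.13 and 0.24) and NOG2 (0.46, 0.14 and 0.23) in all 3, of snR31, snR35, snR36, snR42, snR83 and PUS1 in epl1Δ sds3Δ, of snR81 and NME1 in esa1Δ sds3Δ and esa1Δ epl1Δ sds3Δ, of RAT1 in epl1Δ sds3Δ and esa1Δ epl1Δ sds3Δ, and of NOP1 and SNU13 in epl1Δ sds3Δ and esa1Δ sds3Δ.

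After quantile normalization snR30 (-0.11, -0.35, -0.26), snR84 (-0.11, -0.36, -0.27) and RPR1 (-0.16, -0.24, -0.10) turned negative, as did snR86 in esa1Δ sds3Δ (-0.029) and esa1Δ epl1Δ sds3Δ (-0.15) and snR10 in the latter (-0.046). Quantile normalization sets values by rank alone, which limits what it can show for the most abundant RNAs. As deposited, snR84 (-0.10, -0.21, -0.15) turned negative, with snR30 -0.13 and RPR1 -0.10 in esa1Δ sds3Δ, RPS22B -0.0027 in epl1Δ sds3Δ and -0.064 in esa1Δ epl1Δ sds3Δ, and snR10 -0.0009 in the latter. CBF5 was no longer called at 0.27 and 0.28 in esa1Δ sds3Δ and esa1Δ epl1Δ sds3Δ, nor GAR1 at 0.32 and 0.27 in epl1Δ sds3Δ and esa1Δ epl1Δ sds3Δ. In epl1Δ sds3Δ the calls of SHQ1 as deposited (0.43) and of snR34 (0.026) and snR86 (0.0) after quantile normalization were lost. In a fit of 2 groups CBF5 was at 0.48 in esa1Δ epl1Δ sds3Δ, not called. With 1 library left out, CBF5 ranged from 0.25 to 0.61 there, snR84 from -0.023 to 0.16 in esa1Δ sds3Δ and from -0.012 to 0.17 in esa1Δ epl1Δ sds3Δ, and snR10 from -0.044 to 0.91 and from -0.046 to 0.38. snR84 was at or below 0 in both without wild-type replicate 1 (-0.023 and -0.012) or 3 (-0.012 and -0.0002).

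As a part of summed RPKM the H/ACA share was 16.0% in wild type, against 20.9%, 21.5% and 21.4% for the mutants, and 11.0% and 15.7%, 15.7% and 16.0% of the reads outside SCR1. Other pseudocounts, filters, scaling on protein-coding features and voom moved no count of snoRNA calls by over 1.5 times. The planned tests on read numbers with edgeR and DESeq2 were not run, since the deposited unit is RPKM, and voom took their place. Few reads on snR10 limit its precision, and its call depended on the samples in the fit. Why it had few reads was not tested.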
